A study of Mus musculus with 27 samples.

Results

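The genes described here are the potassium channel genes of the array, chosen as every gene whose annotated symbol starts with Kcn on a probe set assigned to 1 gene. There were 84 of them among 18193 genes so named, on 167 probe sets. Of these, 81 encode channel subunits and 3 are non-coding transcripts named after a neighbouring channel gene. A filter on dim probe sets passed 58 genes, and the other 26 stayed at background. RNA of the mouse cerebellum was hybridised to 27 Affymetrix arrays, 1 per labelled sample. SmoM2 is an activated form of Smoothened, the membrane protein that passes on the Hedgehog signal, and in 19 tumours a cre recombinase had switched it on. Math1-cre, used for 3 tumours, and Tlx3-cre, used for another 3, act in the granule neuron lineage, whereas Olig2-tva-cre, behind 7 tumours, and hGFAP-cre, behind 6, act in earlier or broader progenitors. A further 2 tumours came from Ptc1+/- mice, in which 1 allele of the Patched receptor, the brake on Smoothened, is inactive. The 6 control arrays held cerebellum labelled free of tumour from Olig2-tva-cre:SmoM2 (2), hGFAP-cre:SmoM2 (1), Mxi1-cre:SmoM2 (2) and Ptc1+/- (1) mice, so the controls too carried SmoM2 or Ptc1+/- alleles. The ages of the mice and any pooling of animals are not given in the sources used here. In what follows the tumour groups are called Math1, Tlx3, Olig2, hGFAP and Ptc1+/-.

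Potassium channels let potassium leave the cell and so set the resting potential, end each action potential and control how fast a neuron can fire again. Each channel is built from pore subunits, to which auxiliary subunits add speed, stability and a place in the membrane. In the cerebellum the voltage-gated Kv4 channels with their KChIP partners carry the fast A-type current of granule neurons, Kv1 channels sit along axons and basket cell terminals, and Kv3 channels serve fast-spiking neurons. Inward rectifiers serve neurons through G proteins and glia through potassium uptake, and 2-pore leak channels hold the resting potential.

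Promoter sequences from RefSeq (build GRCm38.p6) were available for 64 of the 84 genes, as windows from 250 bases before a start site to shortly after it. The sequences printed here were chosen among the called members to show a short motif that several promoters share and how far their base make-up differs. The letters CAGCTG, which read the same on both strands and form the core of an E-box bound by neuronal bHLH factors such as Atoh1, stood in the promoter windows of 18 of the 64 genes (28.1%), against 18.3% of 27025 genes and 16.3% of 32851 promoter windows. Among the genes lower in tumours 6 of 22 held them, and among those higher 1 of 4. For comparison, the Gli site letters GACCACCCA, sought on both strands, were in none of the 64 genes (0.289% of all genes). Of the 2 arms of the RE1 element bound by the repressor Rest, TTCAGCACC was in none (0.433% of all genes) and GGACAGCGC in 1, Kcnj4 (0.477% of all genes). None of these longer strings contains CAGCTG. Such matches are letters in a window, and absence of a match says only that these letters are not in it. Stretches of 60 bases around CAGCTG (in capitals) are given 5′ to 3′ on the gene's strand for Kcna2 (chr3:107101339-107101398, plus strand), Kcng4 (chr8:119635778-119635837, minus strand), Kcnd3 (chr3:105451640-105451699, plus strand) and Kcnk2 (chr1:189344193-189344252, minus strand). The first 3 genes were lower in tumours and the fourth was higher.
Kcna2: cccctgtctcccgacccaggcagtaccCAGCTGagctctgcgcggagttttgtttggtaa
Kcng4: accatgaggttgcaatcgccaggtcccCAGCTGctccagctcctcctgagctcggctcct
Kcnd3: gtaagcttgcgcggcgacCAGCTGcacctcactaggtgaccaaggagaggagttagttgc
Kcnk2: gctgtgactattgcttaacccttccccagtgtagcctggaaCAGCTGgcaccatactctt
A second pair shows promoters of very different make-up in front of genes that were both lower. The 100 bases before the start of Kcnc1 (chr7:46396368-46396467, plus strand) and of Kcnj9 (chr1:172329323-172329422, minus strand) are printed with each CG in capitals.
Kcnc1: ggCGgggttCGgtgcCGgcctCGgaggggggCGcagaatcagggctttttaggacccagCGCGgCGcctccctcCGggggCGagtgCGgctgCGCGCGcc
Kcnj9: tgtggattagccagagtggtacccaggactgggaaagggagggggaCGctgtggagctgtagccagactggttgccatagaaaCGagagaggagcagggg
These 100 bases hold 14 CG for Kcnc1 and 2 for Kcnj9, and the full 250 bases upstream hold 30 and 5. The median was 6 over all promoters, 10 over the 64 genes (the promoter with most CG of each) and 12 over the 22 lower genes with a promoter in the table.

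Signals are given as log2 of the rescaled MAS5 intensity, in which 1 unit is a 2-fold change. Values of 3.37 lie at the floor set under dim signals, so a gene at the floor has only an upper bound there. A probe set's signal depends on its sequence as well as on the transcript, so levels are compared between samples and not between genes. Before rescaling, the 2% trimmed mean of the arrays ran from 42.58 to 205.96. Of 7 arrays with a trimmed mean under 85, 5 were Olig2, 1 was hGFAP and 1 Ptc1+/-. The labels call the tumour samples of each group biological replicates and only number the controls. They do not say which samples share an animal or a litter. Each p-value therefore reflects only how these samples scatter, which may be partly technical, and the number of arrays limits the precision.

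In the tumours, potassium channel genes were more often called lower than higher relative to cerebellum without tumour. The mean of the 5 tumour groups was lower for 27 of the 58 genes tested (46.6%, where 25.6% of all 13527 genes were called lower) and higher for 7 (12.1%, against 26.8% of all genes), by limma with a Benjamini-Hochberg adjusted p under 0.05. The 34 called in either direction made up 58.6% of the members, against 52.4% of all genes. Counts by channel class, partner list or marker list below are to be read beside these shares of all genes. The median difference was -0.55 over the 58 genes and 0.02 over all genes. A change of at least 2-fold was seen in 24 of the lower genes and 2 of the higher ones. On the scale without rescaling, where the median of all genes was -0.34, 33 of 60 members tested were called lower and 2 higher (29.6% and 11.3% of all genes). For 20 members every tumour array lay below every control array (34.5%, against 9.68% of all genes), and for 0 members every tumour array lay above (8.14% of all genes). These counts describe the members that passed the filter and do not stand for all 84, because 8 passed only through tumour arrays (Kcna3, Kcnh7, Kcnip2, Kcnj8, Kcnk7, Kcnmb1, Kcnq5 and Kcnv1) and 4 only through control arrays (Kcnab3, Kcnc4, Kcnk12 and Kcnk3).

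**Figure D1:**
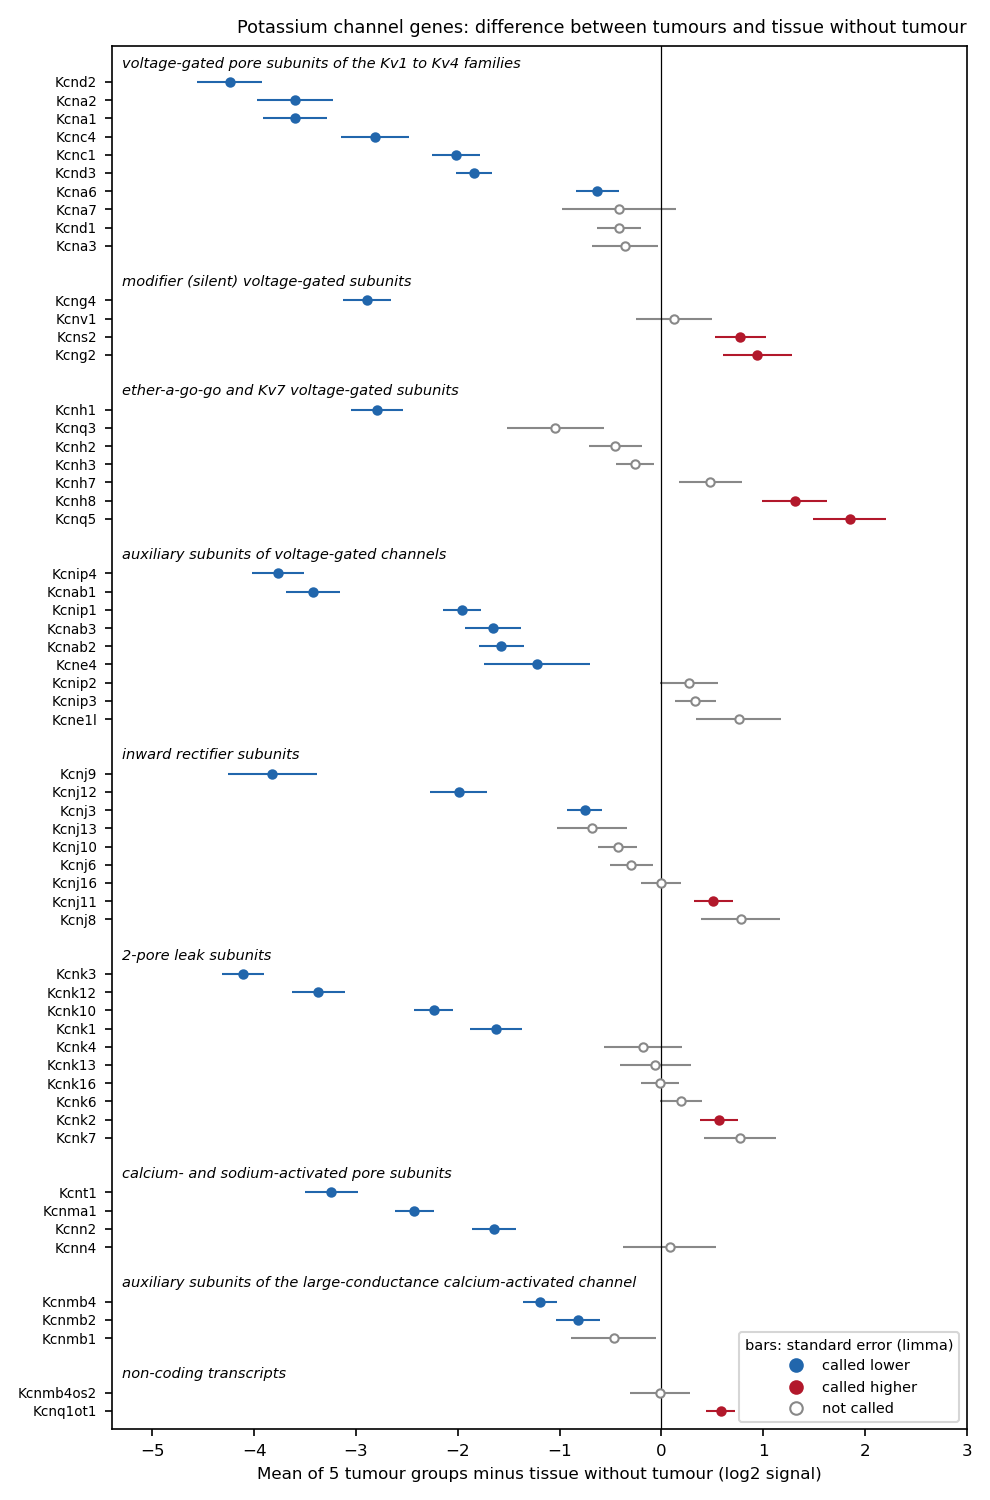
Difference between the mean of the 5 tumour groups and the 6 control arrays for the 58 genes tested (x axis, log2 signal; bars, limma standard errors), ordered within 9 channel classes. Filled blue points are the 27 genes called lower and filled red points the 7 called higher; the blue points reach -4.24 (Kcnd2) and the red ones 1.85 (Kcnq5).

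Markers of several cell types in the tissue also differed between tumours and controls. Of the markers tested, 7 of 7 of mature granule neurons, 7 of 7 of Purkinje cells, 5 of 5 of GABAergic interneurons and 6 of 6 of oligodendrocytes were lower in tumours. So were 3 of 3 of Golgi and unipolar brush cells and 7 of 8 of astrocytes and Bergmann glia. Called higher were 5 of 6 markers of granule neuron precursors, 4 of 4 of mitosis, 5 of 5 of microglia and 3 of 3 of oligodendrocyte precursors. Endothelium had 1 of 3 lower, mural cells had 2 lower and 1 higher of 5, and choroid plexus had 0 of 5 called. The higher mural marker was Cspg4, which is also counted among the oligodendrocyte precursor markers. Of all genes, 25.6% were called lower and 26.8% higher. The summed signal of the granule neuron markers was 20553 to 30119 on control arrays and 1829 to 6996 on tumour arrays, and that of the Purkinje markers 17616 to 24297 against 286 to 2845. None of the granule neuron markers was at the floor on every tumour array. In RNA of whole tissue, fewer cells of a type and less RNA per cell cannot be told apart, and the part of these cell types in the channel results was not tested. The mean log2 signal of the 27 lower members was 8.13 to 8.41 on control arrays and 5.22 to 6.45 on tumour arrays. The tumour arrays with the 2 highest such means, hGFAP replicate 4 (6.45) and Olig2 replicate 3 (6.41), also had the 2 highest sums of granule neuron markers among tumours, 6996 and 6387. Both also belonged to the 5 arrays with a high ratio of 3-prime to 5-prime control probe sets.

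Among the voltage-gated pore subunits of the Kv1 to Kv4 families, 7 of the 10 genes tested fell and 0 rose (25.6% and 26.8% of all genes). Their median difference was -1.93. Kcnd2, the Kv4 subunit that carries much of the granule neuron A-type current, was at 10.62 to 11.17 (median 10.97) on the 6 control arrays. The Math1 arrays gave 7.27, 7.32 and 6.77, the Tlx3 arrays 6.77, 8.11 and 6.71 and the Ptc1+/- arrays 5.97 and 5.46. The 7 Olig2 arrays ran from 5.72 to 7.78 (median 6.26) and the 6 hGFAP arrays from 5.37 to 8.03 (median 7.30). No tumour array came within the range of the controls, and the Ptc1+/- arrays were among the lowest. Kcnd2 fell by 4.24 ± 0.32 (SE; limma adjusted p = 3.47e-12), an 18.9-fold lower mean. Its relative Kcnd3, prominent in interneurons and Purkinje cells, fell by 1.84 ± 0.18 (SE; limma adjusted p = 7.26e-10), while Kcnd1 stood at -0.41 (adjusted p = 0.112).

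The main axonal Kv1 subunits were lower by more than 3 log2 units. Kcna1, mutated in episodic ataxia, was at 10.38 to 11.10 (median 10.53) in controls. Kcna1 read 6.93, 7.01 and 6.51 in Math1 tumours, 7.27, 8.23 and 7.34 in Tlx3 tumours and 6.45 and 6.88 in Ptc1+/- tumours. Olig2 tumours covered 5.46 to 8.25 (median 6.13) and hGFAP tumours 6.20 to 8.66 (median 7.29). The groups did not overlap, and the tumours that came nearest to the controls were an hGFAP, an Olig2 and a Tlx3 tumour. Kcna1 fell by 3.60 ± 0.31 (SE; limma adjusted p = 8.46e-11). Control values of Kcna2, which assembles with Kcna1 along axons, were 8.79 to 10.19 (median 9.998). In tumours, Kcna2 stood at 6.22, 6.49 and 6.14 (Math1), 5.52, 6.19 and 6.46 (Tlx3) and 5.71 and 5.61 (Ptc1+/-). Its Olig2 values spanned 4.61 to 8.26 (median 5.50) and its hGFAP values 6.28 to 7.59 (median 6.81). The Olig2 tumours were the most spread group for Kcna2, with an SD of 1.49, yet none of them reached the lowest control. Kcna2 fell by 3.60 ± 0.38 (SE; limma adjusted p = 2.92e-09). The Kv1 gene Kcna6 fell by 0.63 ± 0.21 (SE; limma adjusted p = 0.0142). That call was lost without control 2 and with the 3 controls of the Olig2-tva-cre:SmoM2 and hGFAP-cre:SmoM2 mice alone, where the highest adjusted p was 0.0708. Kcna3, best known from T cells and microglia, stood at -0.36 (adjusted p = 0.376) and Kcna7, a heart and muscle subunit, at -0.41 (adjusted p = 0.563).

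Of the Kv3 genes, which let fast-spiking neurons repolarise quickly, Kcnc1 fell by 2.02 ± 0.24 (SE; limma adjusted p = 2.23e-08). On the probe set used, all its tumour arrays, at 7.36 to 9.57, were below the lowest control at 9.90, yet well above the floor. The size of the fall depends on the probe set. A Kcnc1 probe set brighter in controls (mean 11.01) stood at -4.76, and the remaining ones at -1.65 and -0.22. Kcnc4 fell by 2.82 ± 0.33 (SE; limma adjusted p = 3.14e-08), or at least 7.04-fold, because 16 of the 21 tumour arrays were at the floor. Kcnc4 passed the filter only through control arrays, so its selection favoured a lower call.

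**Figure D2:**
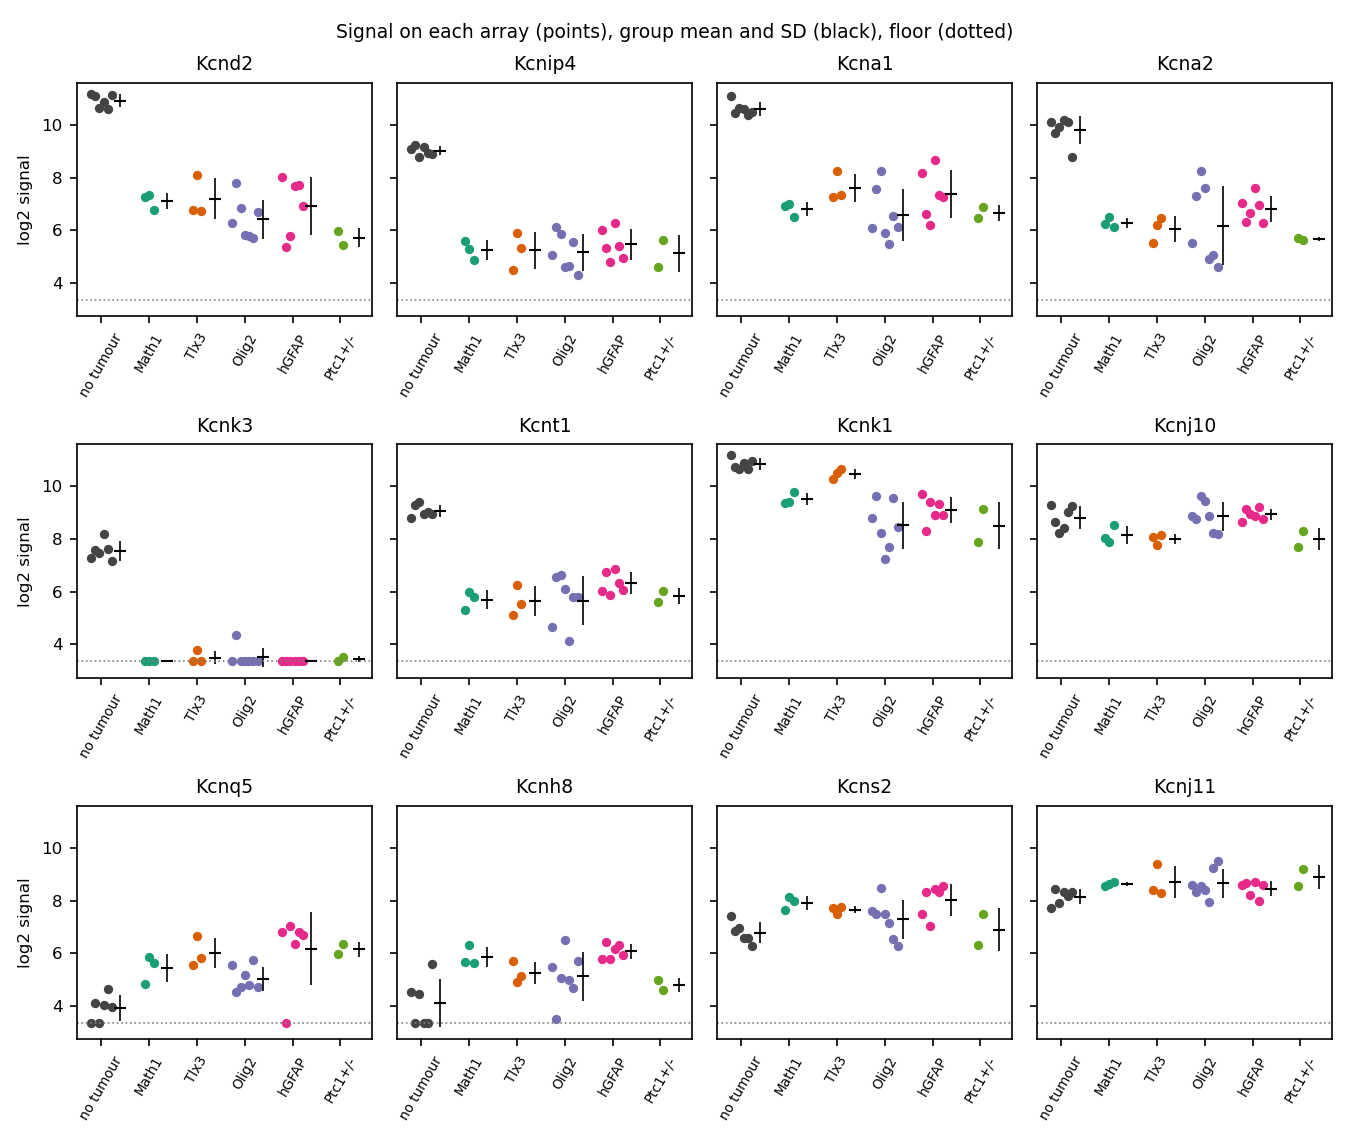
Log2 signal of 12 potassium channel genes on each of the 27 arrays (points, by group) with group means and SD (black) and the floor (dotted line at 3.37). For the first 6 panels no tumour point reaches a control point; Kcnk1 stays near the controls in Tlx3 tumours, Kcnj10 overlaps them, and the 4 genes of the bottom row are higher in tumours with overlapping arrays.

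Of the auxiliary subunits of these channels 6 of 9 genes were lower and 0 higher (median -1.57), against 25.6% and 26.8% of all genes. Kcnip4, a KChIP that binds Kv4 channels and changes their gating, was at 8.79 to 9.23 (median 9.01) in controls. Its tumour signals were 5.60, 5.30 and 4.85 with Math1, 4.50, 5.89 and 5.32 with Tlx3 and 4.61 and 5.63 with Ptc1+/-. Across Olig2 arrays Kcnip4 went from 4.30 to 6.14 (median 5.05), and across hGFAP arrays from 4.80 to 6.28 (median 5.35). Every tumour array was far below every control, and the 5 groups lay close together. Kcnip4 fell by 3.77 ± 0.26 (SE; limma adjusted p = 5.04e-13). Kcnip1, a KChIP of interneurons, fell by 1.96 ± 0.19 (SE; limma adjusted p = 4.5e-10), whereas Kcnip2 and Kcnip3 stood at 0.27 (adjusted p = 0.456) and 0.33 (adjusted p = 0.169). Outside the Kcn names, the Kv4 partners Dpp6 and Dpp10 fell by 2.60 and 4.09 (adjusted p = 2.31e-13 and 1.8e-12), Dpp10 as a lower bound since 1 tumour array was at the floor. Thus 2 of 3 Kv4 pore genes, 2 of 4 KChIP genes and both Dpp genes of the A-type channel were lower.

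Kcnab1, a beta subunit that speeds the inactivation of Kv1 channels, was at 9.37 to 10.11 (median 9.92) in the controls. Kcnab1 read 6.72, 6.19 and 6.503 in Math1 tumours, 5.63, 7.26 and 6.34 in Tlx3 tumours and 5.95 and 6.36 in Ptc1+/- tumours. Olig2 tumours covered 4.64 to 7.15 (median 6.27) and hGFAP tumours 6.14 to 7.46 (median 7.05). No tumour array overlapped the controls, and the lowest was an Olig2 tumour. Kcnab1 fell by 3.43 ± 0.26 (SE; limma adjusted p = 7.17e-12). Its relative Kcnab2 fell by 1.57 ± 0.22 (SE; limma adjusted p = 6.41e-07). Kcnab3 fell by 1.65 ± 0.27 (SE; limma adjusted p = 7.6e-06), or at least 3.15-fold, as all 21 tumour arrays were at the floor. Kcnab3 passed the filter only through control arrays, so its selection favoured a lower call. Proteins that hold Kv1 channels at axonal sites fell in 6 of 7 cases (median -2.81), among them the adhesion protein Cntnap2 at -3.03, the secreted Lgi1 at -3.26 (1 tumour array at the floor) and the scaffold Dlg2 at -2.83 (adjusted p = 1.02e-11, 3.02e-09 and 2.24e-10). The exception, Cntn2, stood at 0.16 (adjusted p = 0.713). Kcne4, a small single-span subunit, fell by 1.22 ± 0.52 (SE; limma adjusted p = 0.0494), a call that was lost in 26 of 46 other settings.

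**Figure D3:**
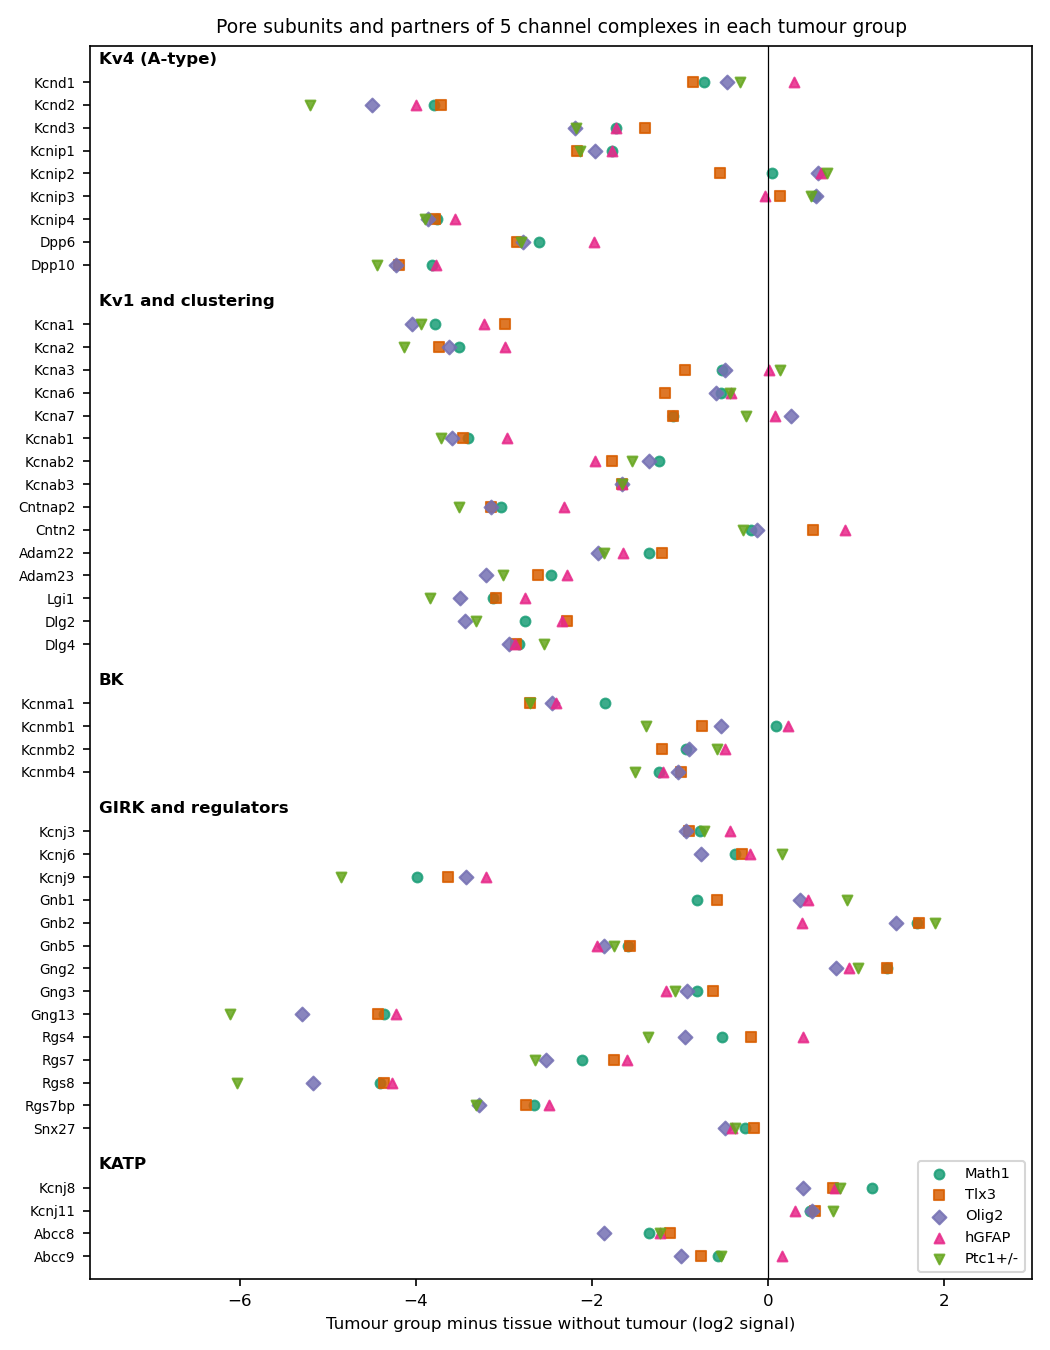
Difference from the control mean (x axis, log2 signal) in each of the 5 tumour groups (symbols) for all tested pore subunits of 5 channel complexes and the tested proteins that work with them. Genes of the Kv4 and Kv1 complexes lie to the left of 0 in all groups except Kcnd1, Kcnip2, Kcnip3, Kcna3, Kcna7 and Cntn2, which lie on both sides. Kcnj11 and Kcnj8 lie to the right while their receptor subunit Abcc8 lies to the left.

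The modifier subunits, which form no channel alone but alter Kv2 channels, moved both ways. Kcng4 was at 8.05 to 8.96 (median 8.46) in controls. The Math1 arrays gave 5.74, 5.72 and 4.98, the Tlx3 arrays 4.82, 6.08 and 4.04 and the Ptc1+/- arrays 5.47 and 6.62. The 7 Olig2 arrays ran from 4.96 to 6.26 (median 5.61) and the 6 hGFAP arrays from 5.62 to 6.28 (median 5.86). Tumours and controls did not overlap. Kcng4 fell by 2.89 ± 0.24 (SE; limma adjusted p = 3.22e-11). Kcns2 went the other way, from 6.29 to 7.42 (median 6.71) in controls. Kcns2 read 7.62, 8.12 and 7.97 in Math1 tumours, 7.71, 7.50 and 7.76 in Tlx3 tumours and 6.32 and 7.47 in Ptc1+/- tumours. Olig2 tumours covered 6.27 to 8.48 (median 7.47) and hGFAP tumours 7.05 to 8.56 (median 8.32). The ranges overlapped in the Olig2, hGFAP and Ptc1+/- groups, and Math1 and Tlx3 arrays were all above the highest control. Kcns2 rose by 0.78 ± 0.25 (SE; limma adjusted p = 0.00994), a call lost without rescaling and with 3 controls alone. Kcng2 rose by 0.94 ± 0.34 (SE; limma adjusted p = 0.0209), but its Ptc1+/- mean was lower than the control mean (-0.35, adjusted p = 0.681). That call was also lost without control 4, which was at the floor. Kcnv1 stood at 0.13 (adjusted p = 0.802).

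In the ether-a-go-go and Kv7 families, 1 gene of 7 fell and 2 rose (25.6% and 26.8% of all genes). Kcnh1, the ether-a-go-go channel of neurons, was at 8.51 to 9.06 (median 8.65) in controls. In tumours, Kcnh1 stood at 6.04, 6.66 and 5.96 (Math1), 5.92, 6.51 and 5.33 (Tlx3) and 5.06 and 6.11 (Ptc1+/-). Its Olig2 values spanned 4.72 to 6.73 (median 5.52) and its hGFAP values 5.66 to 6.92 (median 6.53). All tumour arrays were below the controls, with 3 of the Olig2 arrays among the lowest. Kcnh1 fell by 2.79 ± 0.25 (SE; limma adjusted p = 1.69e-10). Kcnh8, a slowly gated relative, was dim in controls at 3.37 to 5.58 (median 3.92), with 3 of the 6 arrays at the floor. Its tumour signals were 5.65, 6.32 and 5.62 with Math1, 5.72, 4.90 and 5.15 with Tlx3 and 4.97 and 4.60 with Ptc1+/-. Across Olig2 arrays Kcnh8 went from 3.51 to 6.49 (median 5.06), and across hGFAP arrays from 5.76 to 6.43 (median 6.06). Most tumour arrays were above most controls, but the controls above the floor lay inside the tumour range. Kcnh8 rose by 1.31 ± 0.32 (SE; limma adjusted p = 0.00103), or at least 2.48-fold.

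Kcnq5, which contributes to the M-current that steadies neurons near threshold, was near the floor in controls at 3.37 to 4.65 (median 3.99). The Math1 arrays gave 4.83, 5.87 and 5.64, the Tlx3 arrays 5.54, 6.64 and 5.83 and the Ptc1+/- arrays 5.96 and 6.35. The 7 Olig2 arrays ran from 4.54 to 5.73 (median 4.80) and the 6 hGFAP arrays from 3.37 to 7.03 (median 6.74). A single tumour array, hGFAP replicate 2, was at the floor, and the other 20 lay close to or above the highest control. Kcnq5 rose by 1.85 ± 0.36 (SE; limma adjusted p = 6.72e-05) and was the 1 member called higher in each of the 5 groups. Kcnq5 passed the filter only through tumour arrays, so its selection favoured a higher call. Controls 1 and 3 were at the floor. Its M-current partner Kcnq3 stood at -1.04 (adjusted p = 0.0696), with an SD of 1.76 among the Olig2 arrays. Kcnh2, Kcnh3 and Kcnh7 stood at -0.45 (adjusted p = 0.151), -0.26 (adjusted p = 0.248) and 0.48 (adjusted p = 0.199).

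Inward rectifiers fell in 3 of 9 cases and rose in 1 (median -0.43), where 25.6% of all genes were called lower and 26.8% higher. Kcnj9, a subunit of the G-protein-gated channel that neurotransmitter receptors open, was at 6.77 to 10.06 (median 8.43) in controls. Kcnj9 read 5.000, 4.86 and 3.37 in Math1 tumours, 4.81, 5.16 and 4.30 in Tlx3 tumours and 3.37 and 3.71 in Ptc1+/- tumours. Olig2 tumours covered 3.37 to 6.91 (median 4.64) and hGFAP tumours 3.63 to 5.89 (median 5.39). Olig2 replicate 3 lay above the lowest control, and the other tumour arrays lay below all controls. Kcnj9 fell by 3.82 ± 0.43 (SE; limma adjusted p = 1.48e-08), or at least 14.1-fold since 3 tumour arrays were at the floor. Kcnj3, another subunit of that channel, fell by 0.75 ± 0.17 (SE; limma adjusted p = 0.000518), and Kcnj6 stood at -0.29 (adjusted p = 0.247). Of 11 genes that gate or regulate this channel 7 were lower and 2 higher. The G-protein gamma subunit Gng13 and the regulator Rgs8 fell by 4.88 and 4.85 (adjusted p = 6.94e-11 and 1.72e-11), while Gnb2 and Gng2, broadly used G-protein subunits, rose by 1.43 and 1.08 (adjusted p = 0.000198 and 6.24e-07). Rgs8 and Gng13 are also known from Purkinje cells, whose markers fell.

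The glial rectifier Kcnj10, which astrocytes and Bergmann glia use to take up potassium, differed from this pattern. Its control values were 8.23 to 9.31 (median 8.84). In tumours, Kcnj10 stood at 8.04, 7.88 and 8.53 (Math1), 8.07, 7.79 and 8.16 (Tlx3) and 7.70 and 8.29 (Ptc1+/-). Its Olig2 values spanned 8.20 to 9.64 (median 8.87) and its hGFAP values 8.64 to 9.21 (median 8.92). The Olig2 arrays covered the control range and the hGFAP arrays lay inside it, while the Math1, Tlx3 and Ptc1+/- arrays lay at or under its lower part. Over all tumours Kcnj10 stood at -0.43 (adjusted p = 0.0585), and it fell in the Tlx3 (-0.81, adjusted p = 0.0224) and Ptc1+/- groups (-0.82, adjusted p = 0.0486). Of 8 astrocyte and Bergmann glia markers, 7 fell and 1, Gfap, rose by 2.24, and their part in these values was not tested. Kcnj16, which pairs with Kcnj10, stood at -0.00 (adjusted p = 0.997). The choroid plexus rectifier Kcnj13 stood at -0.68 (adjusted p = 0.0974), and its highest value, 8.79, was on control 5.

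Of the metabolic KATP channel, the pore subunit Kcnj11 was at 7.74 to 8.45 (median 8.25) in controls. Its tumour signals were 8.56, 8.64 and 8.69 with Math1, 8.39, 9.39 and 8.29 with Tlx3 and 8.56 and 9.21 with Ptc1+/-. Across Olig2 arrays Kcnj11 went from 7.95 to 9.49 (median 8.55), and across hGFAP arrays from 7.99 to 8.70 (median 8.59). Tumour and control arrays overlapped in the Tlx3, Olig2 and hGFAP groups. Kcnj11 rose by 0.51 ± 0.19 (SE; limma adjusted p = 0.0236), and none of the 5 groups passed alone (the lowest adjusted p was 0.0605 in Olig2). The call was lost under 7 of 46 other settings, among them without rescaling. Its sulphonylurea receptor Abcc8 fell by 1.36 (adjusted p = 9.66e-05), and the vascular pair Kcnj8 and Abcc9 stood at 0.78 (adjusted p = 0.0943) and -0.54 (adjusted p = 0.152). Kcnj12, a classical strong rectifier, fell by 1.99 ± 0.28 (SE; limma adjusted p = 6.08e-07).

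Among the leak channels 4 of 10 genes fell and 1 rose (25.6% and 26.8% of all genes). Kcnk3, an acid-sensitive leak channel of granule neurons, was at 7.15 to 8.21 (median 7.52) in controls. The Math1 arrays gave 3.37, 3.37 and 3.37, the Tlx3 arrays 3.37, 3.77 and 3.37 and the Ptc1+/- arrays 3.37 and 3.52. The 7 Olig2 arrays ran from 3.37 to 4.35 (median 3.37) and the 6 hGFAP arrays from 3.37 to 3.37 (median 3.37). All but 3 of the 21 tumour arrays were at the floor. Kcnk3 fell by 4.11 ± 0.21 (SE; limma adjusted p = 1.04e-15), or at least 17.3-fold. Kcnk12, a halothane-inhibited family member, was at 6.40 to 7.59 (median 7.16) in controls. Kcnk12 read 4.25, 3.37 and 4.44 in Math1 tumours, 3.37, 4.63 and 3.37 in Tlx3 tumours and 3.37 and 3.37 in Ptc1+/- tumours. Olig2 tumours covered 3.37 to 4.68 (median 3.37) and hGFAP tumours 3.37 to 3.37 (median 3.37). Every hGFAP and Ptc1+/- array was at the floor, and no tumour array reached a control. Kcnk12 fell by 3.37 ± 0.26 (SE; limma adjusted p = 7.03e-12), or at least 10.3-fold. Kcnk3 and Kcnk12 passed the filter only through control arrays, so their selection favoured a lower call.

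The mechanosensitive leak channels Kcnk10 and Kcnk2 went opposite ways. Kcnk10 fell by 2.24 ± 0.19 (SE; limma adjusted p = 4.86e-11), with all tumour arrays (4.95 to 6.71) below the controls. Its relative Kcnk2 was at 5.83 to 7.55 (median 6.37) in controls. In tumours, Kcnk2 stood at 7.14, 7.49 and 7.11 (Math1), 6.95, 7.45 and 6.92 (Tlx3) and 6.44 and 7.13 (Ptc1+/-). Its Olig2 values spanned 6.10 to 6.99 (median 6.88) and its hGFAP values 6.70 to 7.63 (median 7.26). A single control, replicate 6, lay within the upper tumour range, and the others overlapped only the lower tumours. Kcnk2 rose by 0.57 ± 0.19 (SE; limma adjusted p = 0.0135), a call lost without rescaling and without control 3. Kcnk4, Kcnk6, Kcnk7, Kcnk13 and Kcnk16 stood between -0.18 (Kcnk4) and 0.77 (Kcnk7), with adjusted p from 0.069 (Kcnk7) to 0.964 (Kcnk16).

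Of the channels opened by calcium or sodium, 3 of 4 pore subunits fell (25.6% of all genes). Kcnt1, a sodium-activated channel that ends bursts of firing, was at 8.80 to 9.40 (median 8.99) in controls. Its tumour signals were 5.30, 5.999 and 5.80 with Math1, 5.14, 6.26 and 5.52 with Tlx3 and 5.62 and 6.04 with Ptc1+/-. Across Olig2 arrays Kcnt1 went from 4.12 to 6.63 (median 5.82), and across hGFAP arrays from 5.89 to 6.88 (median 6.20). No tumour overlapped the controls, and the Olig2 tumours were the most spread. Kcnt1 fell by 3.24 ± 0.26 (SE; limma adjusted p = 2.14e-11). Kcnma1, the pore of the large-conductance calcium-activated channel strongly used by Purkinje cells, fell by 2.43 ± 0.20 (SE; limma adjusted p = 1.66e-11), and Kcnn2, a small-conductance channel of the same cells, fell by 1.64 ± 0.22 (SE; limma adjusted p = 2.4e-07). Kcnn4, known from immune and blood cells, stood at 0.08 (adjusted p = 0.901). It was dim in controls (mean 4.02, SD 1.01), and control as well as tumour arrays were at the floor. Of the microglia markers 5 of 5 were higher in tumours, and a link to Kcnn4 was not tested.

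Of the beta subunits of the large-conductance channel 2 of 3 fell (25.6% of all genes). Kcnmb4, the neuronal beta subunit, was at 8.82 to 9.31 (median 9.09) in controls. The Math1 arrays gave 7.81, 7.67 and 8.04, the Tlx3 arrays 8.16, 7.94 and 8.16 and the Ptc1+/- arrays 6.98 and 8.13. The 7 Olig2 arrays ran from 7.65 to 8.71 (median 7.93) and the 6 hGFAP arrays from 7.38 to 8.34 (median 7.87). The controls lay above every tumour, and the gap to the highest Olig2 tumour was small. Kcnmb4 fell by 1.19 ± 0.17 (SE; limma adjusted p = 5.59e-07) and Kcnmb2 fell by 0.82 ± 0.22 (SE; limma adjusted p = 0.00219). Kcnmb1, a smooth muscle subunit, stood at -0.47 (adjusted p = 0.365). Whether the pore differed more than its beta subunits was not tested.

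Kcnq1ot1, a non-coding RNA read across the Kcnq1 gene from the paternal chromosome, was at 7.25 to 7.77 (median 7.39) in controls. Kcnq1ot1 read 7.90, 7.78 and 8.34 in Math1 tumours, 8.06, 7.59 and 7.83 in Tlx3 tumours and 8.32 and 8.61 in Ptc1+/- tumours. Olig2 tumours covered 7.31 to 8.17 (median 7.75) and hGFAP tumours 7.75 to 8.48 (the middle values 7.98 and 8.02). The Ptc1+/- arrays and the Math1 arrays were all above the highest control, Math1 replicate 2 only just. Tlx3, Olig2 and hGFAP arrays overlapped the controls. Kcnq1ot1 rose by 0.58 ± 0.14 (SE; limma adjusted p = 0.00106), a call lost without rescaling. The protein-coding Kcnq1 itself was at background. Kcnmb4os2, an antisense transcript, stood at -0.01 (adjusted p = 0.974).

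Genes listed with the channels because they maintain potassium gradients or anchor channels moved both ways. The neuronal potassium-chloride cotransporter Slc12a5 fell by 4.61 and Slc12a2 by 0.75, while Slc12a7, a cotransporter of many tissues, rose by 1.37 (adjusted p = 2.66e-10, 8.64e-06 and 0.00476). Of the sodium pump's beta subunits Atp1b1 and Atp1b2 fell by 3.08 and 1.64 (adjusted p = 2.02e-12 and 1.96e-07), and Atp1b3 stood at 0.11 (adjusted p = 0.569). Of the cation channels opened by hyperpolarization, Hcn3 rose by 1.40 (adjusted p = 0.0103) and Hcn2 stood at -0.51 (adjusted p = 0.056). The Kv2 partner Amigo1 fell by 0.70 (adjusted p = 0.00867), and 2 of 3 anchors of the axon initial segment fell, Ank2 by 1.64 and Sptbn4 by 2.33 (adjusted p = 2e-08 and 1.16e-10). Rest, the repressor of neuronal genes that is known to act on several Kcn genes, stood at -0.26 (adjusted p = 0.411). Its corepressors Rcor2 and Rcor1 rose by 4.23 and 0.89 (adjusted p = 4.52e-14 and 5.19e-07). None of the 4 gamma subunits of the large-conductance channel could be tested.

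Each tumour group taken alone showed the same preponderance of lower members. In Math1 tumours 25 were lower and 6 higher (53.4% called, against 37.4% of all genes), and in Tlx3 tumours 28 were lower and 2 higher (51.7% against 40.3%). Olig2 tumours had 29 lower and 3 higher (55.2% against 49.6%), hGFAP tumours 24 lower and 8 higher (55.2% against 41.7%), and Ptc1+/- tumours 24 lower and 3 higher (46.6% against 36.3%). Of all genes tested, those called lower made up 25% for Olig2, 20.6% for Tlx3, 19.2% for hGFAP, 18.4% for Ptc1+/- and 18.1% for Math1 tumours, and those called higher 24.7%, 19.7%, 22.5%, 17.9% and 19.3% in the same order. The members' median lay at -0.88 for Tlx3, -0.72 for Math1, -0.67 for Olig2, -0.65 for Ptc1+/- and -0.20 for hGFAP tumours, with medians over all genes from -0.08 (Tlx3) to 0.11 (hGFAP). These comparisons share the 6 control arrays and are therefore not independent. Without rescaling, hGFAP tumours had 27 lower and 2 higher members of 60 tested (22.2% and 7.17% of all genes) and Ptc1+/- tumours 36 lower and 0 higher (37.9% and 3.2% of all genes, whose median there was -1.01), and without Ptc1+/- replicate 2 that group also had 0 higher.

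Across the 5 groups 43 of the 58 members were called in at least 1 group (74.1%, against 63.7% of all genes). None was called lower in 1 group and higher in another, which held for 0.0961% of all genes. Lower in each of the 5 groups were 22 members (37.9%, against 11.7% of all genes), and higher in each was 1 (1.72%, against 12.1%). They comprise the pore subunits Kcna1, Kcna2, Kcnc1, Kcnc4, Kcnd2, Kcnd3 and Kcnh1 with the modifier Kcng4, the auxiliary subunits Kcnab1, Kcnab2, Kcnab3, Kcnip1 and Kcnip4, the rectifiers Kcnj9 and Kcnj12, the leak channels Kcnk3, Kcnk10 and Kcnk12, and Kcnma1, Kcnmb4, Kcnn2 and Kcnt1 of the ion-activated channels. Among the genes lower in each of the 5 groups, Kcnab3, Kcnc4, Kcnk3 and Kcnk12 passed the filter only through control arrays. The gene higher in each, Kcnq5, passed only through tumour arrays. The spread between arrays differed by group. For the 27 lower members the median SD was 0.60 among Olig2 tumours, which include 5 of the 7 dim arrays. It was 0.47 for hGFAP, 0.45 for Ptc1+/-, 0.41 for Tlx3, 0.31 for Math1 tumours and 0.30 for the controls.

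**Figure D4:**
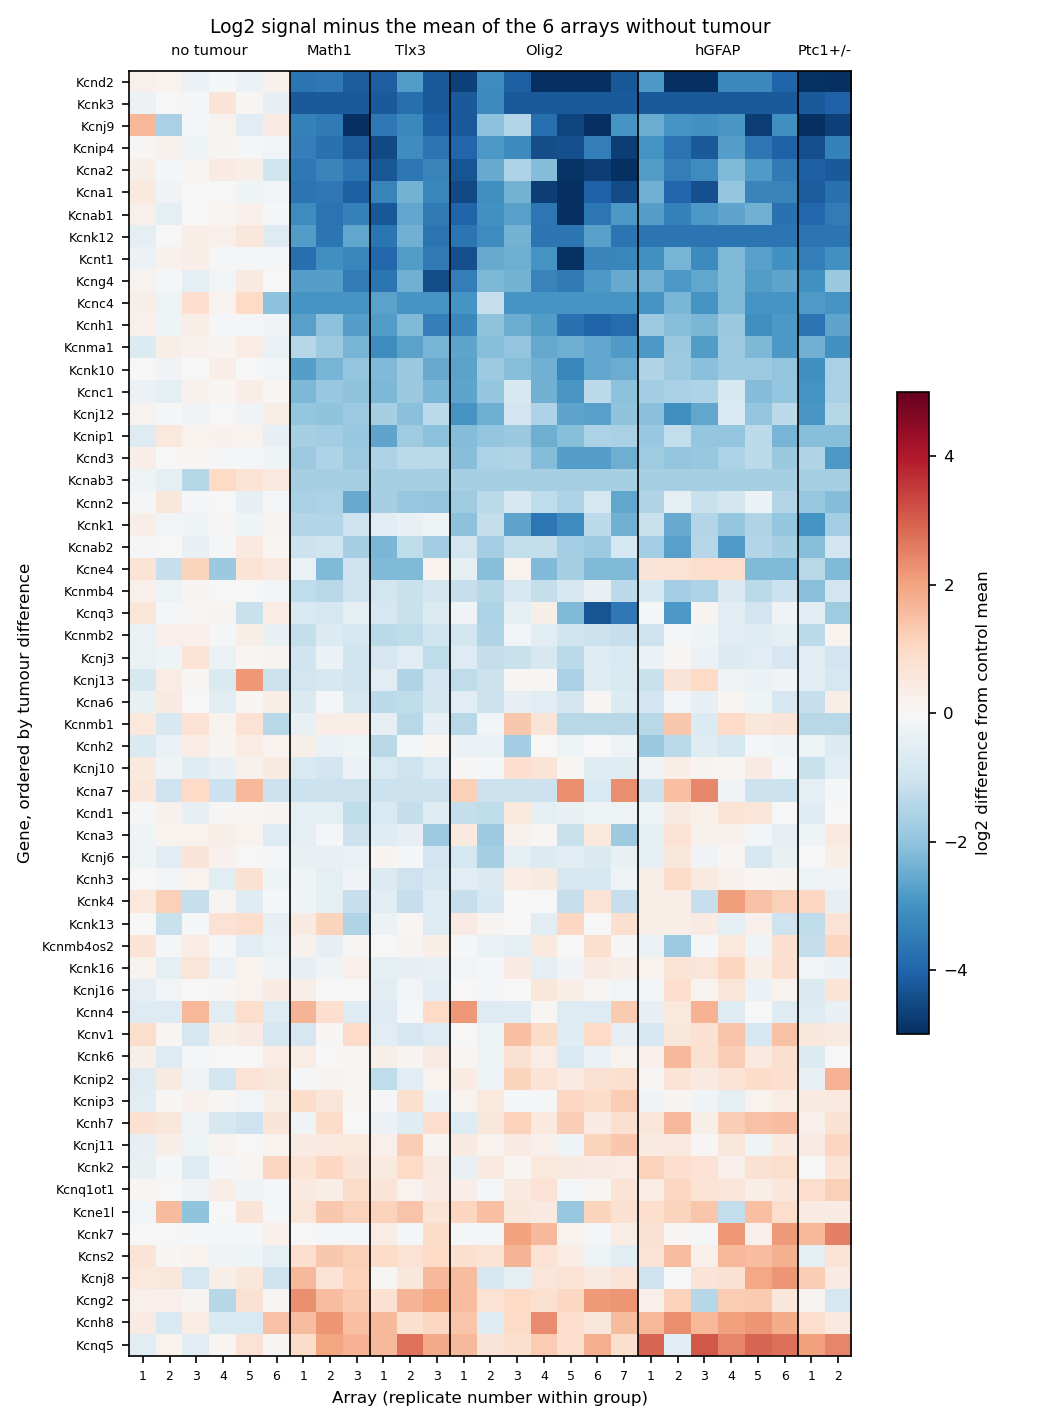
Log2 signal of the 58 members (rows, ordered by tumour difference) on the 27 arrays (columns, by group and replicate) minus the mean of the 6 control arrays; blue is lower and red higher, with colours saturating at 5 units. The block of lower genes at the top spans all 5 tumour groups, while the red rows at the bottom are paler and patchier.

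Between the SmoM2 tumours of different drivers few members were called. Over the 4 groups 1 of 58 members was called by the F statistic (1.72%, against 0.946% of all genes), and 11 were under an unadjusted p of 0.05 (19% of members and 21.1% of all genes). The gene called was Kcnk1, a leak channel of weak conductance found in cerebellar granule neurons and astrocytes. Its controls were at 10.65 to 11.19 (median 10.81). In tumours, Kcnk1 stood at 9.37, 9.39 and 9.80 (Math1), 10.28, 10.50 and 10.65 (Tlx3) and 7.87 and 9.14 (Ptc1+/-). Its Olig2 values spanned 7.23 to 9.64 (median 8.45) and its hGFAP values 8.32 to 9.73 (median 9.13). Tlx3 tumours came up to the lower edge of the controls, and Math1 tumours lay between the Tlx3 tumours and most Olig2 and hGFAP tumours. The group means were 10.47 in Tlx3, 9.52 in Math1, 9.10 in hGFAP and 8.52 in Olig2 tumours (SD 0.19, 0.24, 0.50 and 0.89), a span of 1.96 (limma F, adjusted p = 0.0293). Against the controls Kcnk1 fell by 1.62 ± 0.26 (SE; limma adjusted p = 3.89e-06) over all tumours, with -0.37 in Tlx3 tumours (adjusted p = 0.457). The span was called in 36 of 45 other settings, with values from 1.34 to 3.01, and was lost without Tlx3 replicate 1, 2 or 3, Olig2 replicate 5 or 7, or hGFAP replicate 5. A second Kcnk1 probe set did not pass among the SmoM2 groups (adjusted p = 0.271).

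Tumours of the broader drivers hGFAP and Olig2 were set against those of Math1 and Tlx3, and here too Kcnk1 was the 1 member called (1.72%, against 0.259% of all genes, 0.14% called lower and 0.118% higher). It was lower by 1.19 ± 0.27 (SE; limma adjusted p = 0.0477), a call that held in 13 of 45 other settings. At an unadjusted p under 0.05 there were 10 members (17.2%, against 15.5% of all genes), among them Kcnj10, Kcnd1, Kcnd3 and Kcnn2, none of which passed the adjustment. With the Ptc1+/- tumours against the 4 SmoM2 groups, limma called 0 members (0.547% of all genes, 0.503% lower and 0.0444% higher) and 6 had an unadjusted p under 0.05 (10.3%, against 11.7% of all genes). These were Kcnd2, Kcng2, Kcnk1, Kcnk7, Kcnq1ot1 and Kcns2, and the smallest adjusted p was 0.198. With 2 Ptc1+/- arrays, small differences were not detectable.

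Several members are measured by more than 1 probe set, and those gave a check on the values. In 17 of 23 such members with several probe sets above the filter, all probe sets had the same sign, and 0 members had probe sets called in opposite directions. The 3 probe sets of Kcnd2 stood at -4.24, -4.04 and -3.86, and those of Kcna1 at -3.60, -3.68 and -3.77. Kcna6 was uneven. The probe set used stood at -0.63 and another at -3.64, both called lower, and the remaining one at 0.09 (adjusted p = 0.832). A further Kcnq1ot1 probe set stood at 3.41, with a control mean of 3.48 close to the floor. Mixed signs were also seen for Kcna2, Kcnd1, Kcnh3, Kcnj3 and Kcnj6, where the gene's value depends on the probe set. For Kcnj3 the probe set used stood at -0.75 and the others at -1.97, -1.73 and 0.79, the last not called. Kcnc1 kept 1 sign but ran from -4.76 to -0.22, with the probe set used at -2.02.

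Some of the genes are direct neighbours in the RefSeq annotation, and 4 such pairs had both members tested. Kcnj9 at -3.82 lies beside Kcnj10 at -0.43, and Kcna2 at -3.60 beside Kcna3 at -0.36. Kcna1 at -3.60 lies beside Kcna6 at -0.63, and Kcnip1 at -1.96 beside Kcnmb1 at -0.47. With the probe sets used, 1 gene of each pair had fallen by more than its neighbour's value, though the difference within a pair was not tested. For Kcna1 and Kcna6 this depends on the probe set, since another Kcna6 probe set stood at -3.64. Kcna3 and Kcnmb1 were dim in controls (means 5.18 and 4.75) and passed the filter only through tumour arrays. They had less room to fall than Kcna2 and Kcnip1 (control means 9.80 and 7.82). The windows of Kcna2 and Kcnj9 printed above show the start regions of the first genes in 2 of these pairs.

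The 26 members at background were Kcna4, Kcna5, Kcnc2, Kcne1, Kcne2, Kcne3, Kcnf1, Kcng1, Kcnh5, Kcnj1, Kcnj2, Kcnj4, Kcnj5, Kcnj14, Kcnj15, Kcnk5, Kcnk15, Kcnmb4os1, Kcnn1, Kcnn3, Kcnq1, Kcns1, Kcns3, Kcnt2, Kcnu1 and Kcnv2. None of them exceeded the median of the table on 3 arrays in any probe set. The most arrays above it was 2, for Kcne2, a subunit of the choroid plexus, whose highest signal was 6.94. Kcnn1, a small-conductance calcium-activated channel, was at the floor on 1 array and Kcnj2, a strong inward rectifier, on 25. For these genes a difference was not detectable on this array. Other Kcn genes were not analysed here.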

How the data were processed

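Per the labels' protocols, 5 ug of total RNA from each of 27 samples, prepared with Trizol and RNeasy, were labelled with biotin for Affymetrix arrays. The deposited table holds linear intensities for 45101 probe sets, for which the submitters' processing notes name MAS5. Its version and the scaling target are not given in the sources used here. Each array was rescaled to a common 2% trimmed mean of 123.61, intensities under the 20th percentile of the table (10.3) were raised to it, and log2 was taken. Probe sets above the table's median (45.6) on at least 3 arrays were kept, and the probe set with the highest mean stood for each gene, which gave 13527 genes. MAS5 subtracts mismatch probes, so dim probe sets are noisy and the floor understates large falls. The probe annotation gave 34945 probe sets 1 gene and 932 several genes, and 9160 were not listed in it.

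A single linear model with 6 group means (limma 3.58.1 in R 4.3.3, empirical Bayes with trend and robust fit, 21 residual degrees of freedom, two-sided apart from the F statistic over the SmoM2 groups) was fitted to all genes, and p-values were adjusted by Benjamini-Hochberg over all of them. Calls required an adjusted p under 0.05. Contrasts compared the mean of 5 tumour groups with controls, each group against controls, the SmoM2 groups among themselves, hGFAP and Olig2 against Math1 and Tlx3, and Ptc1+/- against SmoM2, with groups weighted equally. The model was tested on simulated data. Channel members, partner lists, marker lists and tests were chosen with earlier results of these data known. Values per array are given for up to 10 highest and 10 lowest called members with all 5 group means on the same side of the control (6 higher and 10 lower met this), those called between tumours, and the member with the highest control mean of each class. Kcng2 and other members are given by their differences. Alternatives changed scaling, floor, filter, probe set, moderation, array weights, covariates and arrays. A comparison of protein sequences was not made.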

Additional observations from a re-analysis of the deposited data

Results flagged for a closer look

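Groups of 4 to 10 arrays were searched for a lowest or highest array far from the others (Dixon's test at its 95% limit). Of 58 such groups over 20 members 5 had one, where chance alone gives about 1 in 20 groups. Kcna1 read 11.1 on control 1, above the other controls at 10.38 to 10.64. Kcna2 read 8.79 on control 6, below the others at 9.70 to 10.19. Kcnj9 read 3.63 on hGFAP replicate 5, against 5.33 to 5.89 on the other hGFAP arrays. Kcnk3 read 4.35 on Olig2 replicate 2, while the other Olig2 arrays were at the floor of 3.37. Kcnq5 was at the floor, 3.37, on hGFAP replicate 2, where the others read 6.34 to 7.03. Without any of these arrays the members kept their calls against the controls. Kcnk1 was listed because its level differed between the SmoM2 groups, with 1.96 between the highest and the lowest group mean.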

How the results depend on the processing

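Over the settings tried, no call against the controls was reversed, though the differences of 11 uncalled members fell on both sides of 0. Of the 34 called members 27 (25 lower, 2 higher) stayed called under all settings. Calls were lost in some setting for the lower genes Kcna6 and Kcne4 and the higher genes Kcng2, Kcnj11, Kcnk2, Kcnq1ot1 and Kcns2, and 9 of the 24 uncalled members were called in some setting. The count for all tumours ran from 28 (3 controls of the Olig2-tva-cre:SmoM2 and hGFAP-cre:SmoM2 mice, a choice made after seeing the data) to 41 (array weights). Leaving out each array gave 32 to 35 for all tumours, 26 to 33 for Math1, 26 to 31 for Tlx3, 28 to 34 for Olig2, 28 to 34 for hGFAP and 24 to 27 for Ptc1+/-. The counts between tumours are small and moved more, and the cause was not tested. Between the broader drivers (hGFAP, Olig2) and the granule-lineage ones (Math1, Tlx3) the count of 1 became 19 without rescaling and 2 with array weights. It became 0 with quantile normalization, median centring, a floor at the 10th percentile, no filter, the mean of probe sets, plain empirical Bayes, no dim arrays, no arrays of high 3-prime to 5-prime ratio, and that ratio or brightness as a covariate, and leaving out 1 array gave 0 to 2. For the SmoM2 groups the count of 1 became 9 without rescaling, 8 with array weights, 3 without the dim arrays, 2 without the arrays of high ratio and 0 with the mean of probe sets or brightness as a covariate, and leaving out 1 array gave 0 to 3. For Ptc1+/- against SmoM2 the count of 0 became 5 without rescaling, 1 without the dim arrays and 1 with the ratio as a covariate, and stayed at 0 with any array left out. With the replicate number as a block the counts were 37 for all tumours, 32, 31, 30, 32 and 26 for the groups from Math1 to Ptc1+/-, and 0 for each comparison between tumours. Same-numbered arrays did not deviate together (49 pairs, median correlation 0.03, from -0.34 to 0.28, and 7 of 27 arrays correlated best with their own number), so the numbers do not pair the samples. Probe sets near the floor limit what can be seen. A planned comparison of protein sequences was not run, for want of those sequences here.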
